A study of Triticum dicoccoides with 12 samples.

Results

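The transcripts described here are the 100 probe sets of a wheat expression array whose signal varied least over 12 arrays of wild emmer wheat. A probe set is a group of short array probes that report 1 transcript or a few near-identical ones, and its signal is a linear intensity in arbitrary units. The choice ran over 61115 probe sets, leaving out those of the array's own controls and reporters. Of these, 4529 had a signal of at least 1000 on all 12 arrays. The 150 with the highest minimum were dropped, which left 4379 eligible probe sets, and the 100 with the smallest standard deviation (SD) of log2 signal were taken. The measured values chose these 100, so their small spread on these arrays is a description and not a finding.

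The arrays came from Triticum dicoccoides, a tetraploid wild relative of cultivated wheat. Each of 4 groups held 3 arrays: the drought-resistant genotype (R) Y12-3 under terminal drought, the same genotype well-watered, the drought-susceptible genotype (S) A24-39 under terminal drought, and that genotype well-watered. All samples were total RNA from phyllome, the leaf-like organs, of 10-week-old plants in reproductive growth, raised in quartz sand and peat. Each genotype is 1 accession, so a difference between R and S is one between these 2 accessions.

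Transcripts whose level hardly changes between conditions serve as yardsticks when other transcripts are measured. Ubiquitin, which tags proteins for degradation, and actin, a cytoskeletal protein, are common choices in plants, as are the translation elongation factor EF1A, the glycolytic enzyme GAPDH and tubulin. Such a yardstick is only as steady as the scaling of the arrays on which it is read, because a steady transcript and the scaling factor are measured together. In a polyploid, the copies of a gene from each subgenome are similar enough to bind the same probes, and a probe set can sum over them.

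The deposited signals had nearly the same trimmed mean on each array, 500.1 to 500.2, while the median signal lay between 58.6 and 151.6. Well-watered R replicate 3 stood apart. On that array 33042 probe sets exceeded 129, the 95th percentile of 23 probe sets that target no wheat transcript, against 21848 to 27343 on the other arrays. No member of the set fell below that noise level on any array. Of 9 leaf marker symbols looked for, 2 were in the platform annotation, FBP (fructose-1,6-bisphosphatase) and petC (the Rieske protein of the cytochrome b6f complex). Each had 1 probe set above the noise level on all 12 arrays, and a second that exceeded it on 2 arrays (FBP) or 0 (petC).

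The 100 probe sets had an SD of log2 signal of 0.102 to 0.167, with a median of 0.148. The median over the eligible probe sets was 0.483. The highest array exceeded the lowest by 1.25-fold to 1.60-fold in the members, with a median of 1.40-fold, and by a median of 2.87-fold in the eligible probe sets. In bulk tissue a steady signal can hold opposite shifts in the number of cells and in RNA per cell, which cannot be told apart here. The spread within groups was also narrow: its pooled SD had a median of 0.130 in the members and 0.262 in the eligible probe sets. The steadiest eligible probe sets were therefore steady among replicates as well as between groups, as the rule requires.

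The set reached across the range of brightness but not evenly. The geometric mean signal of a member over the 12 arrays ran from 1238 for Ta.3433.1.S1_at to 13315 for Ta.13252.1.S1_at, with a median of 3121, against 3947 over the eligible probe sets. When the eligible probe sets were cut by brightness into 4 bins of nearly equal size, the bins held 39, 30, 9 and 22 members, dimmest first. The median SD of the eligible probe sets in the same bins was 0.362, 0.500, 0.568 and 0.641. By design type, 61 members were plain probe sets and 16 carried the suffix x, which marks probes shared with other transcripts. Plain probe sets made up 52.3% of the eligible ones, and those with the suffix x 21.6%.

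The steadiest member, Ta.3438.1.A1_at, had an SD of 0.102. Its signal was 1412, 1561 and 1648 in R under drought, 1508, 1618 and 1323 in well-watered R, 1467, 1550.1 and 1659 in S under drought, and 1411, 1440.5 and 1439 in well-watered S. The lowest value was that of well-watered R replicate 3. The ranges of the 2 R groups overlapped, while in S every drought array lay above every well-watered array. The next was Ta.6566.2.S1_a_at (SD 0.104), with signals of 2839, 3067 and 3113 in R under drought, 3369, 3116 and 3212 in well-watered R, 2678, 2855 and 3338 in S under drought, and 2779, 3094 and 2941 in well-watered S. Here well-watered R lay above R under drought on every array, by little: the lowest well-watered value was 3116 and the highest drought value 3113. Ta.822.1.S1_x_at (SD 0.105) ranged between 5987 and 7683, with both ends in the drought groups. Ta.7702.1.S1_at (SD 0.107) lay between 4059 and 5214. Ta.5034.1.S1_at (SD 0.110) spanned 2234 to 2920.2, and both of these values came from well-watered R. TaAffx.42328.1.S1_at (SD 0.111) lay between 2308 and 2992, and its 3 highest values were the 3 well-watered S arrays. None of these 6 probe sets has a gene in the platform annotation.

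The edge of the set is not a gap in the data. The last members were Ta.7846.1.S1_at, Ta.4585.1.S1_at and Ta.5022.2.S1_x_at, with SDs of 0.1662, 0.1666 and 0.1669. The first probe sets outside were Ta.8547.1.S1_at, Ta.3309.2.S1_x_at and Ta.5548.1.A1_at, at 0.1670, 0.1674 and 0.1677. The brightness limits were as close: the lowest minimum among the 150 dropped probe sets was 14099 and the highest among the eligible ones 14048.

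**Figure D1:**
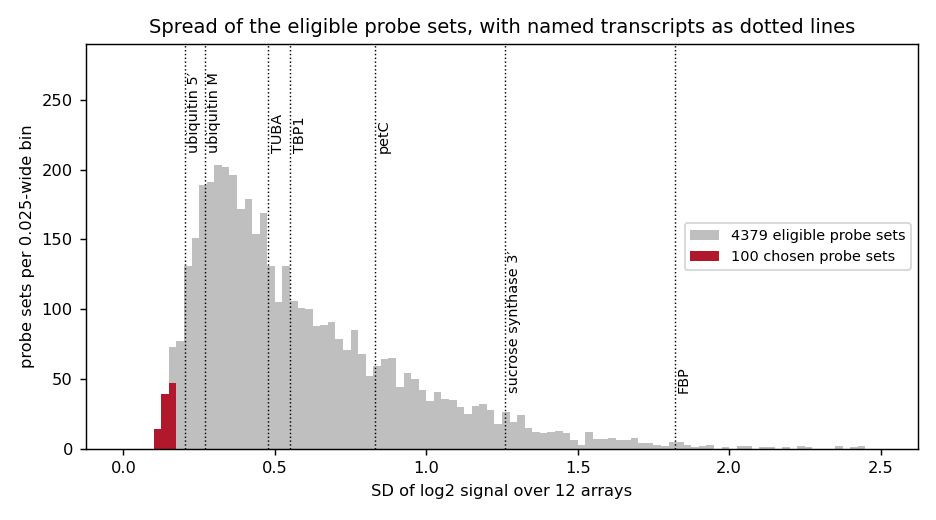
Histogram of the SD of log2 signal over 12 arrays (x axis, log2 units) for the 4379 eligible probe sets in grey and the 100 chosen ones in red, as probe sets per bin (y axis). Dotted lines mark named transcripts for comparison, of which the ubiquitin probe sets, TBP1, sucrose synthase and FBP are not among the eligible. The chosen probe sets fill the left edge up to 0.167, and ubiquitin 5′ and M lie to their right at 0.203 and 0.268.

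Only 6 of the 100 members are paired with a gene in the platform annotation, a share close to the 6.10% of the eligible probe sets, and each gene is given there as a bare locus number with no function. LOC543188 (Ta.100.1.S1_at), rank 11 by SD, was the dimmest of them. Its signal was 1537, 1297 and 1223 in R under drought, 1205, 1089.9 and 1257 in well-watered R, 1402, 1204 and 1259 in S under drought, and 1263, 1259 and 1242 in well-watered S. The highest array was a drought array and the lowest a well-watered one, both of R, and the groups overlapped within each genotype.

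LOC543269 (Ta.165.1.S1_at), rank 12, had 3297, 3162 and 3178 in R under drought, 3273, 2855 and 2648 in well-watered R, 3173, 3079.9 and 2841 in S under drought, and 2870.3, 2576 and 2762 in well-watered S. Drought arrays had the higher mean in both genotypes, by 0.14 on the log2 scale in R and 0.15 in S, with ranges that overlapped in each. LOC780667 (Ta.9622.1.S1_x_at), rank 39, is the one locus with several bright probe sets. It had 4630.4, 4183 and 5355 in R under drought, 4184, 4135 and 4749 in well-watered R, 5355, 5293 and 4347 in S under drought, and 4557, 4167 and 4500.1 in well-watered S. Its other bright probe sets were less steady, with SDs of 0.169, 0.257 and 0.313 and ranks of 111, 536 and 977 among the eligible. Another probe set paired with the locus, with a median signal of 40.8, lay below the noise level on every array. One locus thus holds a member and several non-members.

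LOC543462 (Ta.14415.1.S1_at), rank 45, had 8067, 7179.6 and 6974 in R under drought, 8490.3, 7495 and 7254 in well-watered R, 8284, 8550.3 and 6994 in S under drought, and 6811, 6565 and 6331 in well-watered S. In S every drought array lay above every well-watered array, whereas in R the groups overlapped. LOC542789 (Ta.181.1.S1_at), rank 60, had 3190.1, 3903 and 3978 in R under drought, 3179, 3552 and 3134 in well-watered R, 4288, 3707 and 3907 in S under drought, and 3189, 3384 and 3359 in well-watered S. It too separated the regimes in S without overlap, with the drought arrays higher. LOC542932 (Ta.2444.1.S1_at), rank 85 and the brightest, had 7982, 9338 and 10136 in R under drought, 9741, 10504 and 9306 in well-watered R, 7554, 9197 and 8131 in S under drought, and 9436, 10669 and 10219 in well-watered S. In S its drought arrays all lay below its well-watered arrays, by a fitted 0.29 on the log2 scale. None of these 3 differences in S was called by limma, and groups that do not overlap in S were found for 43.8% of all probe sets tested. Another probe set paired with LOC542932 was dim, with a median signal of 80.1 and an SD of 1.39. Limma did not call it for drought in either genotype.

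**Figure D2:**
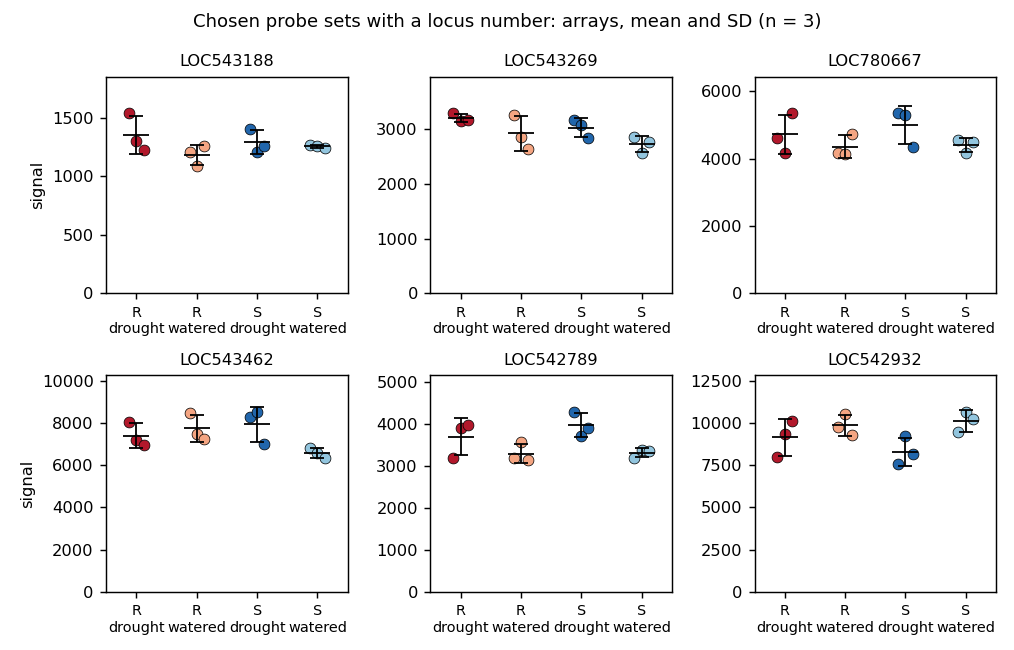
Signal (y axis, linear, from 0) of the 6 chosen probe sets that have a locus number, by group (x axis). Points are arrays, and black bars the mean and SD (n = 3). No group mean departs far from the others, and the drought and well-watered arrays of S separate in LOC543462, LOC542789 and LOC542932.

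The comparisons of the study are drought against well-watered plants within each genotype, R against S within each regime, and the interaction, which is the drought difference in R minus that in S. Their differences were fitted with limma on log2(signal + 16) over 38414 probe sets, and a probe set with a Benjamini-Hochberg adjusted p under 0.05 is counted as called. Of all probe sets tested, limma called 33.4% for drought in R and 27.2% for drought in S. It called 7.28% for R against S in well-watered plants, 7.48% under drought and 0.148% for the interaction. Of the 100 members, 0 were called by limma in each of the 5 contrasts, and 0 had an unadjusted p under 0.05. The rule fixed this outcome, and nothing is read from it. Among the eligible probe sets, 53.9% were called for drought in R and 45.9% in S.

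The small differences that remained went in both directions. For drought in R they ran from −0.27 to 0.32 with a median of 0.05, and the median of all probe sets tested was −0.32. The members' median was 0.015 without well-watered R replicate 3. For drought in S they ran from −0.30 to 0.29 with a median of −0.01, against −0.03 over all tested. The difference of R minus S ran from −0.29 to 0.27 in well-watered plants and from −0.32 to 0.25 under drought, with medians of −0.04 and 0.03, against 0.11 and −0.09 over all tested. Without well-watered R replicate 3, the median in well-watered plants was 0.0034, above 0. The interaction ran from −0.45 to 0.41 with a median of 0.07. The median SE of a member's difference between 2 groups was 0.18, so that a large part of these values is of the size of their error.

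The ends of these ranges are given next as values, none of which was called. For drought in R the upper end was Ta.9025.1.S1_at, which had 2173, 2128 and 1949 under drought, against 1594, 1719 and 1681 in well-watered R, a fitted difference of 0.32. The lower end was Ta.4993.1.A1_at, with 2688, 2540.2 and 2933 under drought, against 3498, 3588 and 2835 in well-watered R, a difference of −0.27. The groups separated in the first and overlapped in the second.

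In S the ends were Ta.7846.1.S1_at and Ta.5022.2.S1_x_at, both among the last members by SD. Ta.7846.1.S1_at had 2508, 2602 and 2388 under drought, against 1971, 2107 and 2054 in well-watered S (0.29). Ta.5022.2.S1_x_at had 2316, 2255 and 2116 under drought, against 2537, 2881 and 2862 in well-watered S (−0.30). Neither pair of groups overlapped.

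Between the genotypes, the ends in well-watered plants were Ta.3433.1.S1_at, with 1351, 1286 and 1207 in R against 1058, 1104 and 1022 in S (0.27), and Ta.23262.2.S1_at, with 2403, 2826 and 2393 in R against 3369.9, 2679.9 and 3291 in S (−0.29). Only the first of these separated the genotypes. Under drought they were Ta.3799.1.S1_x_at, with 6258, 6218 and 6695 in R against 4896, 5597 and 5663 in S (0.25), and Ta.9785.1.S1_a_at, with 2092, 1883 and 2123 in R against 2611, 2465 and 2529.6 in S (−0.32). Both separated them.

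In 22 members the 3 drought arrays of R did not overlap its 3 well-watered arrays, a pattern that 45.9% of all tested probe sets showed. The count was 20 for drought in S (43.8% of all), 14 for R against S in well-watered plants (26.2%) and 21 under drought (27.2%). A probe set can thus belong to the steadiest 100 and still order its arrays by group. The difference is then within the range of fold changes given above.

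The spread that was left in the members lay mostly within groups. Pooled over the members, 60.9% of the sum of squares of log2 signal fell within groups, 16.4% between the regimes, 10.6% between the genotypes and 12.1% on the interaction. By degrees of freedom alone, 72.7% would fall within groups and 9.09% on each other term. In the eligible probe sets the regime took 68.5% and the spread within groups 16.5%. These shares come from the arrays used in the choice and describe it. They are shares of pooled sums, so probe sets with a wide spread weigh most in them.

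Members did not rise and fall together from array to array. Over the 4950 pairs of members, Pearson's r across the 12 arrays had a median of 0.05 and ran from −0.84 to 0.91. These values share the arrays and their scaling. The SD of the log2 ratio of 2 members had a median of 0.200, above the SD of any single member, and ran from 0.065 to 0.302. Even so, the arrays of a group resembled each other slightly in the pattern of the members' deviations. The 12 pairs of arrays within a group correlated with a median r of 0.10 across the 100 members, and 10 of them were above 0, while the 54 pairs across groups had a median of −0.15, and 6 were above 0. Members are not independent replicates, and the deviations were centred for each member, which lowers all such correlations.

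Averaged over the members, the arrays were nearly level. The geometric mean signal of the 100 ran from 3201 in well-watered R replicate 3 to 3501 in S under drought replicate 2, and the mean log2 level of the members had an SD of 0.036 over the 12 arrays. Well-watered R replicate 3 was the lowest array for 24 of the 100 members and the highest for 1, while on the other arrays the count of lowest values was between 2 and 12. When the choice was repeated without that array, 75 of the 100 members were chosen again. Leaving out any other single array kept 80 to 94.

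**Figure D3:**
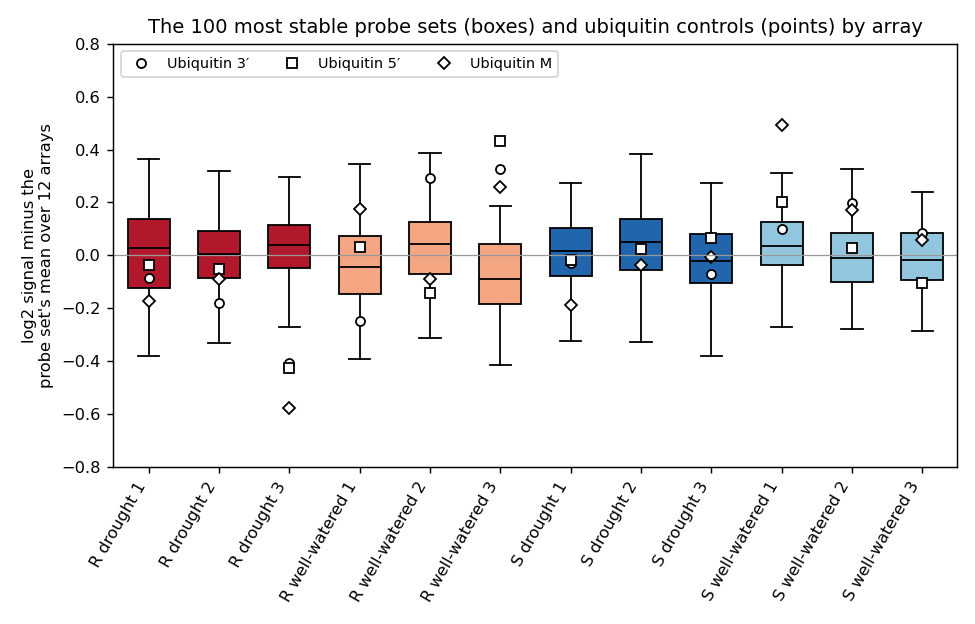
Deviation of log2 signal from the probe set's mean over 12 arrays (y axis) on each array (x axis). Boxes hold the 100 chosen probe sets (median, quartiles, and whiskers to the lowest and highest), and open points are the ubiquitin control probe sets at the 3′ end, 5′ end and middle (M). The ubiquitin points lie below the box of R drought replicate 3 and above that of well-watered R replicate 3.

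The ubiquitin controls of the array were the nearest common yardstick. They are 3 probe sets along a single transcript, at its 3′ end, its middle and its 5′ end, and were not used in the choice. The 3′ probe set read 12714, 11903 and 10180 in R under drought, 11352, 16519 and 16906 in well-watered R, 13233, 13710 and 12854 in S under drought, and 14476, 15497 and 14292 in well-watered S. The 5′ probe set read 52910, 52267 and 40319 in R under drought, 55358, 49106 and 73110 in well-watered R, 53491, 55171 and 56661 in S under drought, and 62369, 55323 and 50476 in well-watered S. The middle probe set read 32882, 34852 and 24845 in R under drought, 41909, 34848 and 44334 in well-watered R, 32518, 36148 and 36907 in S under drought, and 52164, 41788 and 38595 in well-watered S. In all 3 the lowest array was R under drought replicate 3. The 3′ and middle probe sets separated the regimes in S, with their drought arrays lower, while the 5′ probe set overlapped. Groups that do not overlap in S were found for 43.8% of all probe sets tested.

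The SD of log2 signal of ubiquitin was 0.218 at the 3′ end, 0.203 at the 5′ end and 0.268 in the middle. Members were chosen up to 0.167 on this same scale, so no order between ubiquitin and the set is read from these values. The highest array exceeded the lowest by 1.66-fold, 1.81-fold and 2.10-fold. Of the eligible probe sets, 6.51%, 5.0% and 14.2% had a smaller SD than these. Both spreads moved with the scale. They are given as values only, because the members were chosen on the deposited scale. The mean SD of the ubiquitin probe sets was 0.229 on the deposited scale, where the members' median was 0.148, and 0.195 with quantile normalization, where it was 0.149. The ubiquitin value was 0.211 with median scaling (members 0.288) and 0.351 with hybridization control scaling (members 0.529). It was 0.336 with poly-A scaling (members 0.395) and 0.339 with actin scaling (members 0.436). Scaling to ubiquitin itself lowers the ubiquitin value by construction, to 0.110 (members 0.261).

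None of the ubiquitin differences was called by limma on the deposited scale. Under drought in R they were −0.35 ± 0.19, −0.28 ± 0.20 and −0.39 ± 0.20 at the 3′ end, the 5′ end and the middle (log2 ± SE, adjusted p 0.19, 0.32 and 0.15). The 95% intervals ran from −0.76 to 0.06, from −0.71 to 0.15 and from −0.82 to 0.03. In S the differences were −0.15, −0.02 and −0.32, with adjusted p of 0.61, 0.96 and 0.27. All 3 differences in R lay below 0 on the deposited scale and with poly-A scaling, and above 0 with median scaling (0.16, 0.23 and 0.11) and hybridization control scaling (0.58, 0.65 and 0.54). With quantile normalization the 3′ probe set was called lower in R (−0.52, limma adjusted p = 0.041). The genotypes differed by −0.01, 0.06 and −0.13 (R minus S) in well-watered plants, and by −0.20, −0.19 and −0.20 under drought.

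Actin could not serve as a yardstick on these arrays. Its 4 probe sets lay near the noise level of 129, above it on 9, 3, 9 and 4 of the 12 arrays (3′ end, 5′ end, middle, and the middle one with suffix x). Their SDs of log2 signal were 0.724, 1.54, 0.604 and 0.597. The 3′ probe set read 103.3, 140.7 and 132.9 in R under drought against 177, 278 and 445 in well-watered R, and 132, 85.3 and 87.8 in S under drought against 199, 266 and 215 in well-watered S. Drought arrays lay below well-watered arrays in each genotype without overlap. The difference was −1.08 ± 0.38 in R (limma, adjusted p = 0.043) and −1.06 ± 0.38 in S (adjusted p = 0.055). In R it kept its direction under every scaling tried, down to −0.22 with hybridization control scaling, but was not called under median, quantile, hybridization control or poly-A scaling. It also lost its call when 8 of the 12 arrays were left out in turn, with −0.76 (adjusted p = 0.16) without well-watered R replicate 3.

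Other wheat controls on the array spread more widely than the members. Of 25 wheat control probe sets, 23 were tested, and limma called 6 for drought in R, 3 for drought in S and 1 for R against S in well-watered plants. Under drought in R the called ones were 3 probe sets of sucrose synthase, which were higher, and 2 of glucose-6-phosphate dehydrogenase (G-6-PDH) and the actin 3′ probe set, which were lower. The sucrose synthase probe sets were higher under every scaling (2.37 to 4.00 in R, 2.15 to 3.10 in S), whereas the G-6-PDH 3′ probe set turned to 0.17 in R with hybridization control scaling. In S they were the same 3 probe sets of sucrose synthase, which cleaves sucrose. Between genotypes in well-watered plants it was the middle probe set of G-6-PDH, which feeds the pentose phosphate pathway. That call was lost without any 1 of the 3 well-watered R arrays, or without well-watered S replicate 1 or 3. Under drought, R against S called 0 (2 at an unadjusted p under 0.05) and the interaction 0 (3 at an unadjusted p under 0.05). The EF1A and GAPDH control probe sets, 8 in all, had medians of at most 184 and exceeded the noise level on 0 to 11 of the 12 arrays. Their SD reached 2.38, and whether this spread is that of dim signals was not tested.

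Few named genes of the common reference classes could be placed beside the set. Of 14 symbols listed as reference transcripts, 2 are in the annotation, TUBA (alpha-tubulin) and TBP1 (TATA-binding protein, of the transcription machinery), and none of their 3 probe sets is a member. The bright TUBA probe set, Ta.812.1.S1_x_at, had an SD of 0.479 and rank 2160 among the eligible, close to their median SD. It was lower under drought by 0.71 in R and 0.75 in S on the log2 scale (limma, adjusted p 0.034 and 0.032), but higher in R with hybridization control scaling (0.22) and level in S with actin scaling (0.01). TBP1 had an SD of 0.551 and fell to 614 on its lowest array, below the floor of the choice. It was higher under drought in R by 0.77 (limma, adjusted p = 0.025), and by 0.77 to 1.68 over all scalings. In S its difference was 0.16 and was not called (limma, adjusted p = 0.69), with 0.13 to 0.92 over all scalings. Of the other lists, 4 of 8 photosynthesis and carbon symbols, 3 of 6 stress symbols, 2 of 9 leaf, 1 of 3 root and vascular, 3 of 4 defence, and 1 of 5 drought and cold symbols were in the annotation, and 0 of 5 grain symbols. No list had a member. petC and a second probe set of SAHH (S-adenosylhomocysteine hydrolase, an enzyme of methyl-group metabolism) were eligible, at ranks 3446 and 2878.

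Whether these are the most stable transcripts depended on the scale. The same choice was made again after each array had been rescaled to a different yardstick. With quantile normalization, 69 of the 100 members were chosen again. Scaling to the ubiquitin controls kept 28, to the poly-A controls 8, to the hybridization controls 4 and to the actin controls 1. Median scaling, which levels the median log2 signal of the tested probe sets, kept 17. Poly-A and hybridization controls are bacterial or phage transcripts, added to the sample or the hybridization mix in known amounts. No member was chosen under every scaling. The newly chosen lists differed in spread, with a median SD of 0.143 with quantile normalization, against 0.148 on the deposited scale. It was 0.222 with ubiquitin, 0.226 with median, 0.301 with actin, 0.316 with poly-A and 0.431 with hybridization control scaling.

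These yardsticks disagree about the arrays themselves. The members sit closest to the deposited scale, as the rule that chose them implies. The mean log2 level of the members had an SD of 0.036 over the arrays. That of the ubiquitin controls was 0.203, of the poly-A controls 0.374, of the actin controls 0.398 and of the hybridization controls 0.493. The array median over all probe sets had an SD of 0.351, and the median used in median scaling 0.225. Well-watered R replicate 3 was the highest array for ubiquitin (0.34 above the mean over arrays), the array median (0.91) and the hybridization controls (1.1). R under drought replicate 3 was the lowest for ubiquitin (−0.47), the array median (−0.46), actin (−0.59) and the hybridization controls (−0.79). The members themselves deviated by −0.08 and 0.04 on these 2 arrays.

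**Figure D4:**
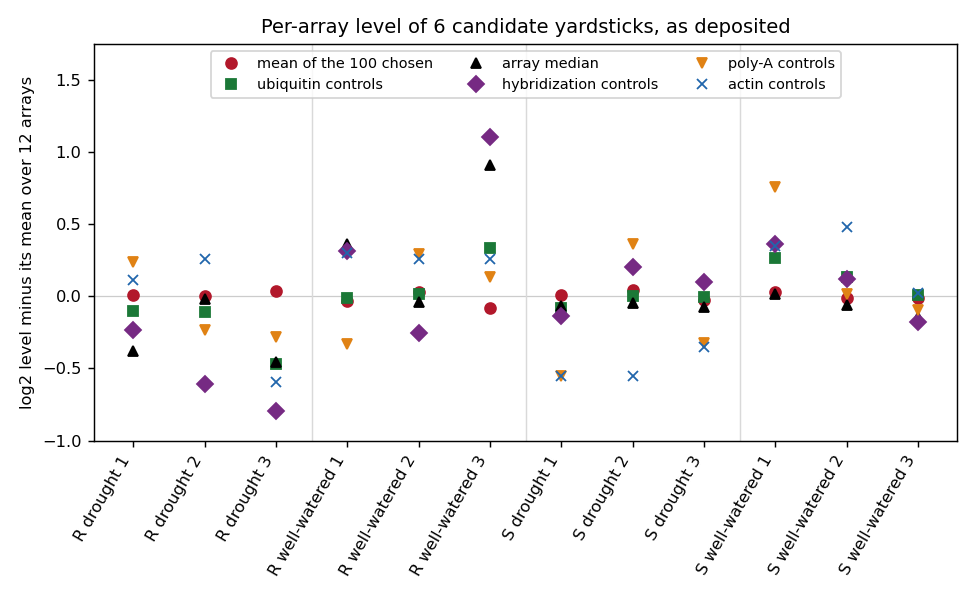
Log2 level of 6 yardsticks on each array (x axis), minus its mean over 12 arrays (y axis). The level is the log2 of the median signal for the array median, and the mean log2 level of the probe sets for the others. The chosen probe sets stay within −0.08 and 0.05, while the hybridization controls run from −0.79 on R drought replicate 3 to 1.1 on well-watered R replicate 3.

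Rescaling by a factor per array moved all members on that array by the same log2 amount, and the other probe sets nearly so. Quantile normalization, which has no such factor, did not. For drought in R it lowered the members' median and raised that of all probe sets tested. The median drought difference of all probe sets tested was −0.32 in R on the deposited scale, 0.12 with median, 0.04 with quantile, 0.50 with hybridization control, −0.21 with poly-A, and −0.02 with both ubiquitin and actin scaling. In S it lay between −0.03 and 0.12, apart from 0.32 with poly-A and 0.65 with actin scaling. For drought in R, 59 of the 100 were higher on the deposited scale, with a median difference of 0.05. All 100 were higher with median scaling (median 0.56), hybridization control scaling (0.98), ubiquitin scaling (0.39) and actin scaling (0.40). With poly-A scaling 87 were higher (0.18), and with quantile normalization 35 were (−0.09). For drought in S, 49 were higher on the deposited scale (−0.01), 65 with median scaling (0.04), 46 with quantile normalization (−0.01), 61 with hybridization control scaling (0.03), 88 with ubiquitin scaling (0.15), and all 100 with poly-A (0.38) and actin scaling (0.76). With median scaling limma called 31 members higher under drought in R, against 31.8% of all probe sets tested, and with hybridization control scaling 12, against 27.8%. No member was called in the other contrasts between groups under these scalings, or under quantile normalization or poly-A scaling. The members were chosen for a flat signal on these same arrays. These counts therefore follow the choice and the array factors, and nothing is read from them. Which scale is nearer to the amount of transcript per plant or per cell was not tested.

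A measure that needs no scaling between arrays gave a set in between. The pairwise stability of a probe set is the mean SD of its log2 ratio to every other eligible probe set, and the array factors cancel in it. Of the 100 probe sets with the smallest values, 64 were members. The members ran from 0.589 to 0.622, against a median of 0.752 over the eligible probe sets. The eligible probe sets were still those of the deposited scale, and the same arrays had chosen the members. The overlap is therefore a description and no independent check. Of these 64, 7 were also chosen under quantile normalization and ubiquitin scaling. They are Ta.6566.2.S1_a_at, Ta.822.1.S1_x_at, Ta.7702.1.S1_at, TaAffx.42328.1.S1_at, Ta.1797.2.S1_a_at, Ta.9920.1.S1_at and Ta.27292.1.S1_at, a group singled out after its values were seen.

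Because the 12 arrays chose the members, the rule was also applied to the 6 arrays of one genotype and the outcome read in the other. The 100 probe sets chosen in R had a median SD of 0.105 there. In S, which the choice did not use, their median SD was 0.224, against 0.448 over the 4996 eligible in R. Of the 100, 95 lay below the median of the eligible probe sets and 66 below their lower quartile. Limma, fitted to the S arrays alone, called 6 of the 100 for drought, 1 higher and 5 lower, with 15 at an unadjusted p under 0.05. It called 47.3% of the eligible probe sets and 34.5% of all probe sets tested. The differences ran from −1.04 to 0.80 with a median of −0.06, and 12 of the 100 fell below a signal of 1000 on an S array. This count moved with single arrays: it was 3 without S drought replicate 1, 10 without S drought replicate 2, 1 without well-watered S replicate 1, 3 without well-watered S replicate 2 and 3 without well-watered S replicate 3. It also moved with the scale on which the choice and the fit were made. With hybridization control scaling 37 were called, against 29.7% of all tested and 41.5% of the eligible, so that the chosen probe sets no longer lay below the share of all tested. The count was 22 with median scaling (34.7% of all tested), 28 with actin scaling (41.8%), 14 with ubiquitin scaling (33.6%), 5 with quantile normalization (34.7%) and 4 with poly-A scaling (25% of all tested). Directions moved as well. Of those called, 0 of 22 were higher with median, 3 of 37 with hybridization control, 27 of 28 with actin and 2 of 14 with ubiquitin scaling. With quantile normalization 2 of 5 were higher, and with poly-A scaling 1 of 4.

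Chosen in S and read in R, the outcome was alike. The median SD of the 100 was 0.0938 in S and 0.226 in R, against 0.536 over the 5507 eligible in S, and 96 lay below the median of the eligible. Limma, fitted to the R arrays alone, called 11 for drought, 6 higher and 5 lower, with 18 at an unadjusted p under 0.05. It called 51.1% of the eligible probe sets and 35.5% of all tested. The count was 4 without R drought replicate 2 and 5 without well-watered R replicate 3, and reached 16 when the choice in S was made without S drought replicate 2. Under the other scalings it lay between 6 and 12, against 26.5% to 33.8% of all tested. Of those called, 9 of 9 were higher with median, 12 of 12 with hybridization control and 7 of 7 with ubiquitin scaling. With quantile normalization 3 of 9 were higher, with poly-A scaling 1 of 11 and with actin scaling 0 of 6. On the deposited scale, most probe sets with a small spread in 1 genotype lay below the median spread of the eligible in the other.

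Single probe sets departed widely. Ta.22559.2.A1_at, among the 100 chosen in S with an SD of 0.070, read 16990, 12657 and 11463 in R under drought, against 2183, 1789.8 and 1697 in well-watered R, a difference of 2.84 ± 0.23 (limma, adjusted p = 8.5e-05). Ta.14086.1.S1_at, also chosen in S, was higher under drought in R by 1.47 ± 0.22 (limma, adjusted p = 0.0013). In the other direction, Ta.28809.1.S1_at, chosen in R, read 1267, 1664 and 1137 in S under drought, against 3247, 2511 and 2578 in well-watered S, a difference of −1.04 ± 0.23 (limma, adjusted p = 0.0075). These were picked after their values were seen, and none of them is a member of the set chosen on all 12 arrays.

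The choices in the 2 genotypes shared 11 of their 100 probe sets, 8 of them members, among which were LOC543269, Ta.3438.1.A1_at, Ta.822.1.S1_x_at and Ta.7702.1.S1_at. Of the 100 members, 28 were chosen in R, 33 in S and 47 in neither. LOC543269 had an SD of 0.126 in R and 0.108 in S.

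**Figure D5:**
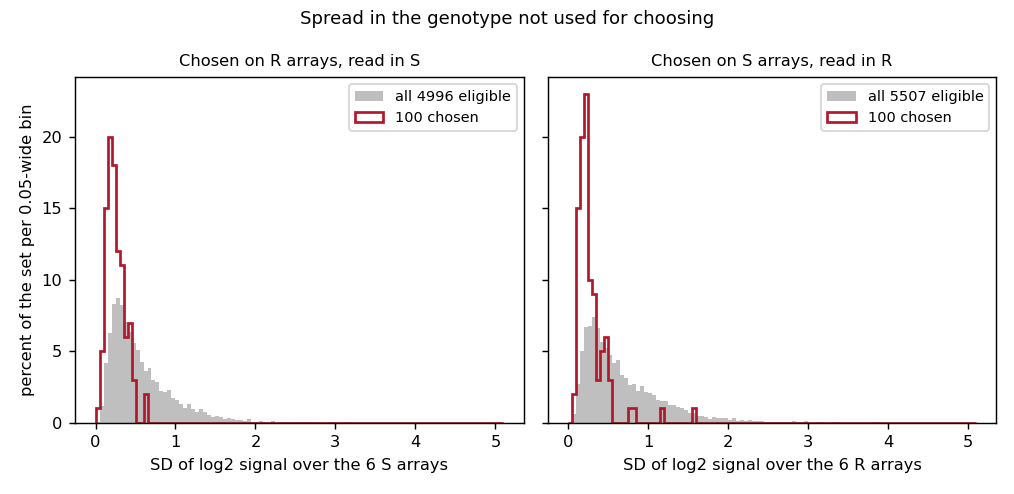
SD of log2 signal over the 6 arrays of the genotype that was not used in the choice (x axis), as percent of the set per bin (y axis). Grey bars are all eligible probe sets, and the red outline the 100 chosen in the other genotype. The red outlines sit left of the grey bars, with medians of 0.224 in S and 0.226 in R against 0.448 and 0.536, and 1 probe set chosen in S reaches 1.57 in R.

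Probe sets that share a cluster number were designed from related transcript sequences, and the rule did not use that number. Of the 100 members, 51 share theirs with another probe set, 108 in all. Counting bright ones alone, 26 members had 39 partners with a signal of at least 1000 on all 12 arrays that were not members themselves. Their SD had a median of 0.265 and ran from 0.168 to 0.577, against a median of 0.476 over all 4529 bright probe sets, and 36 of the 39 lay below that median. Ta.822.2.S1_x_at, the partner of Ta.822.1.S1_x_at, had an SD of 0.168. At the other end, Ta.6453.1.S1_at had an SD of 0.577, with signals from 2438 to 8141. Of the 39, 12 spanned more than 2-fold between arrays, which 76.8% of all bright probe sets did. Limma called 5 of the 39 for drought in R or S, against 61.4% of all bright probe sets and 41.1% of all tested. One cluster held 2 members, Ta.6566.1.S1_at and Ta.6566.2.S1_a_at, whose signals correlated negatively over the 12 arrays (r = −0.46). Some bright partners, Ta.6453.1.S1_at among them, differ from the ID of their member in the suffix alone. Partners can share probes or cross-hybridise, which was not tested. Their spread on these arrays is therefore not free of the choice.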

How the data were processed

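Linear signal intensities of 61290 probe sets on 12 arrays were deposited in 1 table. The authors used MAS5 to make them, according to the submitters' processing notes. Its version and scaling target are not stated. RNA was extracted with an RNeasy Plant Mini kit and biotin-labelled by the Affymetrix one-cycle method, per the labels' protocols. Sample titles gave the groups and replicate numbers. Whether replicates are separate plants is not stated, so the p-values reflect variation among these samples, some of which may be technical. The number of arrays limits the precision.

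From these intensities the 100 members were chosen by the rule in the opening, with log2 taken of the signal itself. The members, the gene lists and the tests were chosen with earlier results of these data known. For the tests, log2(signal + 16) was used with no further scaling, which understates the changes of dim probe sets. Probe sets that exceeded the array median on 3 or more arrays were tested with limma 3.58.1 (lmFit on 4 group means, eBayes with a trend) in R 4.3.3, with Benjamini-Hochberg adjustment over the 38414 tested and a threshold of 0.05. The choice in 1 genotype was read in a limma fit to the 6 arrays of the other. The fit was tested on simulated data. Wheat controls were to be all with the array's wheat prefix. Those with a similar prefix that are spiked in were left out after the table was seen, which left 25. Noise was read from 276 values of 23 probe sets with no wheat target.

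Named probe sets were those with an annotated gene, the 6 steadiest, the 3 on each side of the edge, the ubiquitin and actin controls, the extremes of each contrast, and examples marked as picked later. For partners by cluster number the rule allowed at most 4. Gene names came from the platform annotation of the array, which pairs 1273 probe sets (771 genes) and leaves 59842 unnamed. It shared no gene ID with the wild emmer gene table at hand, so no coordinates are given. Alternatives covered the scaling, pseudocount, filter, floor, stability measure, eBayes trend, replicate block and each array left out. The members' median differences under the other scalings, and without well-watered R replicate 3, were added after the data were seen. Plots used Python 3.11.15 and matplotlib 3.10.9.
The directions of named controls, TUBA and TBP1 under each scaling were computed after the data were seen, as differences of group means.
The shares called under each scaling in the genotype not used for choosing, and those of all bright probe sets, were also added then.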

Additional observations from a re-analysis of the deposited data

How the results depend on the processing

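The make-up of the set depended on the scale. Of the 100 members, 17 were chosen again with median scaling, 4 with hybridization control, 8 with poly-A, 1 with actin and 28 with ubiquitin control scaling, 66 with a floor of 2000 and 64 by pairwise stability. Without single arrays 75 to 94 were. The members' median SD was 0.288 with median, 0.529 with hybridization, 0.395 with poly-A and 0.436 with actin scaling, and 0.143 to 0.152 without single arrays. The members' median drought difference in R was 0.56 with median scaling, −0.088 with quantile normalization, and 0.98, 0.40 and 0.39 with hybridization, actin and ubiquitin scaling. In S it was 0.38, 0.76 and 0.15 with poly-A, actin and ubiquitin scaling. R minus S in well-watered plants was −0.33, −0.32 and 0.16 with median, hybridization and poly-A scaling, and under drought 0.19, 0.63, −0.38 and 0.23 with median, hybridization, actin and ubiquitin scaling. The cause of these shifts was not tested beyond the offsets of the yardsticks given above.

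Wheat controls called by limma for drought in R numbered 3 with median, hybridization or poly-A scaling, and 4 to 6 without single arrays. In S they numbered 5 without the eBayes trend and 3 to 4 without single arrays. For R against S, 0 were called in well-watered plants with median, hybridization or poly-A scaling or the replicate block, 0 to 1 without single arrays, and 1 under drought with hybridization scaling. Of the probe sets chosen in R, 22, 37, 28 and 14 were called in S with median, hybridization, actin and ubiquitin scaling (34.7%, 29.7%, 41.8% and 33.6% of all tested), 2 without the trend, and 1 to 10 without single arrays. Of those chosen in S, 6 and 7 were called in R with actin and ubiquitin scaling (27.4% and 31.2% of all tested), 5 without the trend, 7 with the replicate block, and 4 to 16 without single arrays. No pairing of the samples by replicate number was seen in the array correlations, which cannot exclude one. Same-numbered arrays of different groups had a median correlation of deviations of 0.001 over 18 pairs (−0.13 to 0.18), 1 of them over 0.1. Different-numbered arrays had a median of −0.003 over 36 pairs (−0.22 to 0.22), 2 of them over 0.1.

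The direction of single controls turned with the scale. For drought in R, ubiquitin (3′, 5′, middle) was 0.16, 0.23 and 0.11 with median scaling and 0.58, 0.65 and 0.54 with hybridization scaling, and its 5′ probe set 0.079 with quantile normalization. The 3′ probe set was called with quantile normalization (−0.52, limma adjusted p = 0.041). It was −0.53 and called when replicate 1 of well-watered R was left out. In S the 5′ probe set was 0.036 with median scaling, 0.36 with quantile normalization and 0.026 with hybridization scaling, and the 3 were 0.24, 0.38 and 0.079 with poly-A scaling. The actin 5′ probe set in R was 0.13 with hybridization scaling, and the middle one with suffix x in S 0.26 with poly-A scaling. Without single arrays, directions turned for actin 5′ (−1.01 to 0.39), middle (−0.10 to 0.43) and middle with suffix x (−0.14 to 0.28) in R, and in S for actin middle with suffix x (−0.41 to 0.34) and ubiquitin 5′ (−0.092 to 0.060). The actin 3′ call in R was lost with median (−0.61), quantile (−0.64), hybridization (−0.22) and poly-A scaling (−0.96), a pseudocount of 1 (−1.16), no filter and the replicate block.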
